A study of Mus musculus with 384 samples.

Results

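Fatty acid oxidation and ketogenesis was followed as a set of 33 liver genes, chosen by name from the pathway and from the known targets of PPAR alpha. Earlier results of these data were known when the set was chosen, so the choice is not independent of them. All 33 were found by Ensembl ID among the 21454 genes of the table (GENCODE M21, build GRCm38), and all 33 passed the filter on low values that left 14602 genes for testing. They comprise the regulator Ppara, 2 acyl-CoA synthetases, 5 genes of the carnitine shuttle, 9 of mitochondrial beta-oxidation, 5 auxiliary enzymes for unsaturated fatty acids, 3 of electron transfer, 4 of peroxisomal beta-oxidation, 1 ketone body gene and 3 other PPAR alpha targets. The set is not the whole pathway, and Bdh1 is its only ketone body gene.

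A fatty acid is first joined to coenzyme A, then carried across the inner mitochondrial membrane as a carnitine ester. In the matrix it is shortened by repeated rounds of dehydrogenation, hydration, a second dehydrogenation and cleavage, and the electrons of the first step pass through the electron transfer flavoprotein to the respiratory chain. Very long and branched chains are shortened in peroxisomes, and the liver turns surplus acetyl-CoA into ketone bodies for export. PPAR alpha, a nuclear receptor that binds fatty acids, is known to raise the transcription of many of these genes in liver, above all in fasting.

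The livers came from 192 wild type Diversity Outbred mice (JAX#009376), an outbred stock in which every animal has its own genotype, aged 26 weeks. There were 50 females and 48 males on chow with 6% fat by weight, and 48 females and 46 males on a high fat diet with 22%, each diet having been fed from weaning. Outbreeding generation labels G11L1 (97 mice) and G11L2 (95 mice) occur in all 4 groups. The value is a read signal normalized by the authors to the upper quartile of each mouse, not per gene length, and 1 value per mouse combines 2 technical repeats. RNA came from whole liver tissue, where fewer cells of a type and less RNA per cell cannot be told apart.

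Estimated depth ran from 9.79 to 17.9 M reads per mouse, with group medians between 13.8 and 14.6 M. In 11 mice (3 chow females, 2 high fat females, 4 chow males and 2 high fat males) the summed signal of 9 pancreas genes was above 10, and 1 mouse labelled a chow female, also among the 11, had almost no Xist. Albumin, a defining transcript of hepatocytes, was present at a mean signal of 20851 in chow females and 13333 in high fat males. The scaling matters for small differences: by median-of-ratios rescaling the median log2 change of all genes moved by 0.10 for diet in males and by -0.11 for sex on chow.

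Most steps of the set were higher on the high fat diet in females, while in males few were. Of the 33 genes, 18 rose and 1 fell in females, against 10.0% of all tested genes called higher and 23.3% called lower (limma, adjusted p under 0.05). In males 3 were called higher and 12 lower, against 11.4% and 39.8% of all genes. The median log2 change of the set was 0.16 in females and -0.07 in males, beside -0.04 and -0.10 for all genes. All 18 rises in females held under the deposited scaling, median-of-ratios rescaling (26 called higher) and quantile normalization (30 called higher). The 8 genes that both rescalings added in females were Acsl1, Cpt2, Acadvl, Acadm, Acads, Hadha, Acaa1a and Hsd17b4. In males the 3 rises (Acaa1b, Vnn1 and Aldh3a2) and 1 fall (Crot) held under the 3 scalings, and both rescalings added rises of Cpt1a, Hadh, Decr1 and Bdh1. The other 11 falls in males depended on the scaling: median-of-ratios rescaling gave 4 lower and 7 higher calls, and quantile normalization 1 lower and 11 higher. Under the quantile scale the male values of Hadha, Hadhb, Etfb, Etfdh and Hsd17b4 were slightly above 0 (0.0058 to 0.036) and not called. In G11L2 mice alone, with fewer mice in the fit, 9 genes were called in females and 6 in males. The female calls there were the fall of Crot and rises of Acsl5, Slc25a20, Crat, Decr1, Acaa1b, Ehhadh, Vnn1 and Aldh3a2. In G11L1 mice alone the female changes of Hadh, Aldh3a2 and Crot were not called (adjusted p = 0.098, 0.065 and 0.361). Relative to the median of all genes the set stood at 0.20 in females and 0.03 in males with the deposited scaling, and at 0.21 and 0.03 after median-of-ratios rescaling.

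**Figure D1:**
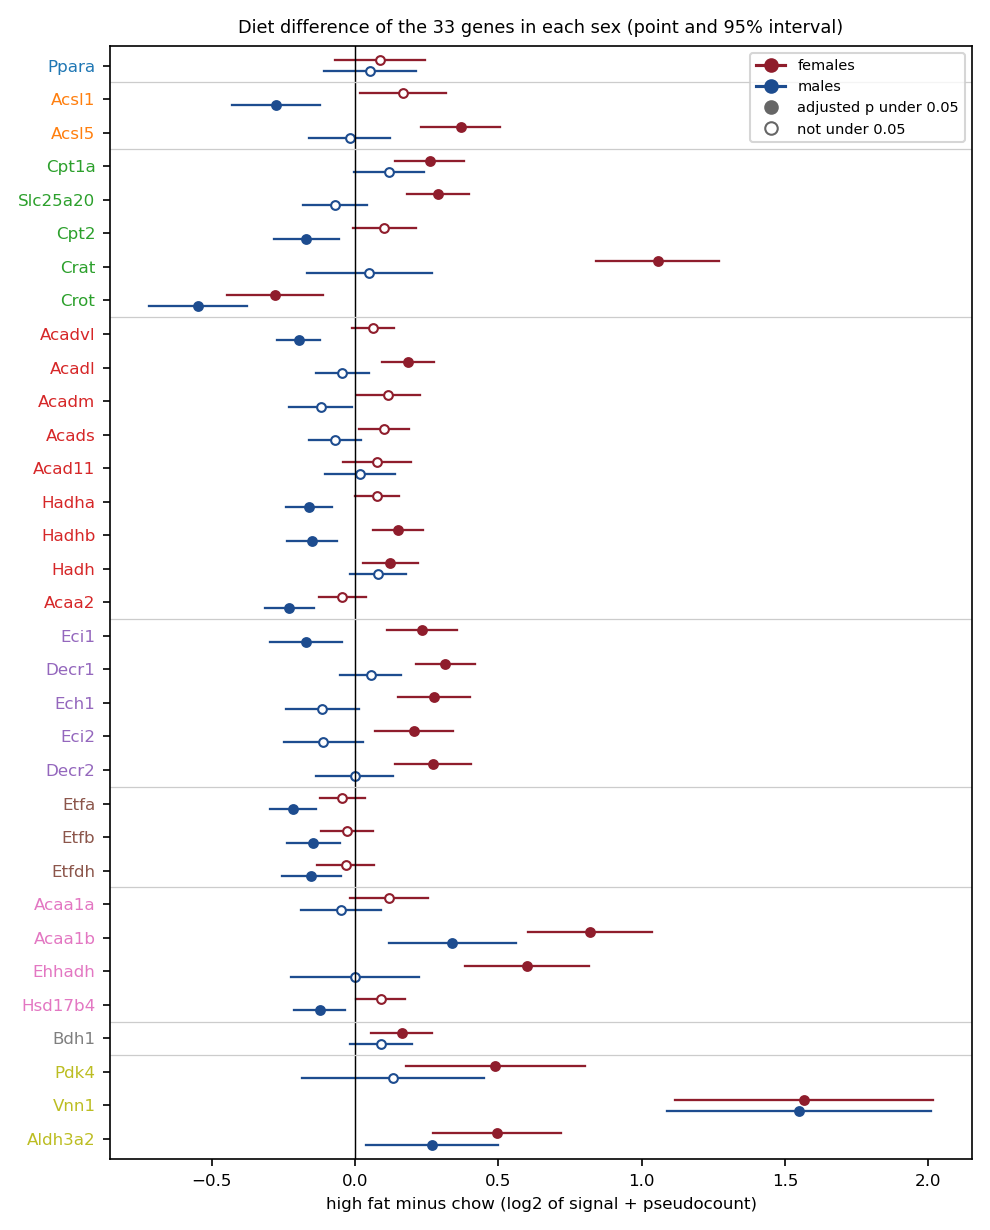
Log2 difference between high fat and chow for each of the 33 genes (x axis, log2 of signal + pseudocount) with its 95% interval, in females (red) and males (blue). Filled points have an adjusted p under 0.05, and label colours and lines mark the steps. Red points lie to the right of blue points for all 33 genes, and the 2 Vnn1 points almost coincide at 1.57 and 1.55.

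Ppara itself, on chromosome 15 (85734983 to 85802819, ENSMUSG00000022383), showed no called difference in any of the comparisons with the deposited scaling. Its signal in chow females ran from 22.7 to 57.7 (median 36.2), and in high fat females from 13.9 to 63.7 (median 41.3). In males the median was 34.4 on chow (18.8 to 62.7) and 36.2 on high fat (12.4 to 56.5). The 4 groups overlapped over most of their ranges. The diet difference was 0.09 ± 0.08 in females (log2 ± SE, adjusted p = 0.417) and 0.05 ± 0.08 in males (adjusted p = 0.612). Its 95% interval in females, -0.07 to 0.25, leaves room for a change as large as that of several genes that were called. After quantile normalization Ppara was called higher on high fat in both sexes (0.19 and 0.21, adjusted p = 0.0420 and 0.0262). It was called lower in males than in females under the median-of-ratios and quantile scalings, on chow (-0.24 and -0.23, adjusted p = 0.00438 and 0.00471) and on high fat (-0.22 and -0.22, adjusted p = 0.0157 and 0.0122).

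The acyl-CoA synthetases activate long-chain fatty acids, and the set holds 2 of them. Acsl5 (chromosome 19, 55251938 to 55297720) rose in females, from a median of 96.7 on chow (59.2 to 177) to 127 on high fat (65.5 to 231). High fat females lay above the chow median in 43 of 48 cases. The rise was 0.37 ± 0.07 (1.29-fold, adjusted p = 1.05e-05), while the male difference was -0.02 ± 0.07 (adjusted p = 0.847). Acsl1 (chromosome 8, 46471037 to 46536051), the main liver form, was highest in chow males, with a median of 360 (132 to 460) against 221 in chow females (140 to 373). On high fat the medians were 284 in males (124 to 496) and 242 in females (154 to 426). The groups overlap, but 37 of 46 high fat males lay below the median of chow males. Acsl1 was lower on high fat in males by the deposited scaling (-0.27 ± 0.08, adjusted p = 0.00175), with adjusted p = 0.0520 after median-of-ratios rescaling and -0.08 (adjusted p = 0.362) on the quantile scale. In females it differed by 0.17 ± 0.08 (adjusted p = 0.0766), and both rescalings called it higher (0.22 and 0.34, adjusted p = 0.00984 and 9.43e-06), the same direction as Acsl5.

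Crat had the strongest sex-dependent diet response of the set. It encodes carnitine acetyltransferase, which moves short acyl groups between coenzyme A and carnitine, and lies on chromosome 2 (30400471 to 30415813, ENSMUSG00000026853). In chow females its signal ran from 4.87 to 30.1 (median 12.1), and in high fat females from 13.9 to 39.0 (median 26.1). Chow males ran from 3.89 to 17.0 (median 9.79) and high fat males from 2.60 to 24.3 (median 9.11). All 48 high fat females lay above the chow female median and 11 above the highest chow female. No such shift was seen in males, of which 21 of 46 on high fat were above the chow median. The diet difference was 1.06 ± 0.11 in females (2.08-fold, adjusted p = 1.22e-15) and 0.05 ± 0.11 in males (adjusted p = 0.724). The difference between those effects, -1.01 ± 0.16 (adjusted p = 9.54e-07), ranked 13 among the 14602 genes by p.

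The long-chain part of the shuttle consists of Cpt1a, the outer membrane carnitine palmitoyltransferase and a main control point of the pathway, the carrier Slc25a20, and Cpt2 on the inner membrane. Slc25a20 (chromosome 9, 108662088 to 108684641) had a median of 19.0 in chow females (11.2 to 31.9) and 23.7 in high fat females (15.2 to 35.7). Male medians were 20.2 on chow (12.0 to 31.0) and 19.5 on high fat (13.3 to 26.3). High fat females thus stood above the other 3 groups, with 44 of 48 above the chow female median, although the ranges overlap. Slc25a20 rose by 0.29 ± 0.06 in females (adjusted p = 9.20e-06) and showed -0.07 ± 0.06 in males (adjusted p = 0.313).

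Cpt1a (chromosome 19, 3322334 to 3385733) rose in females from a median of 113 (60.4 to 178) to 135 (78.6 to 189). In males the medians were 97.2 on chow (64.5 to 159) and 113 on high fat (69.9 to 166). Medians were higher on high fat in both sexes, and 33 of 46 high fat males exceeded the chow male median, but only the female change was called (0.26 ± 0.06, adjusted p = 0.000331, against 0.12 ± 0.06, adjusted p = 0.10). After median-of-ratios rescaling and quantile normalization the male change was called as well (0.23 and 0.28, adjusted p = 0.00139 and 0.000178). The difference between the sexes was not called (-0.14 ± 0.09, adjusted p = 0.315). Cpt2 differed by 0.10 ± 0.06 in females (adjusted p = 0.154), and both rescalings called it higher there (0.15 and 0.19, adjusted p = 0.0139 and 0.000688). In males it differed by -0.17 ± 0.06 in males (adjusted p = 0.0101), which was not called after either rescaling.

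Crot, the peroxisomal carnitine octanoyltransferase that exports shortened chains, was the one member called lower on high fat in females, and it was also lower in males. On chromosome 5 (8966033 to 8997324), its median fell from 128 (63.2 to 236) to 102 (60.9 to 176) in females and from 149 (74.4 to 290) to 106 (35.7 to 190) in males. Of 46 high fat males, 43 lay below the chow male median and 8 below the lowest chow male. The fall was -0.55 ± 0.09 in males (1.46-fold, adjusted p = 4.47e-08) and -0.28 ± 0.09 in females (adjusted p = 0.00642). The male fall held under all 3 scalings, and in females it was -0.15 (adjusted p = 0.180) after quantile normalization.

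**Figure D2:**
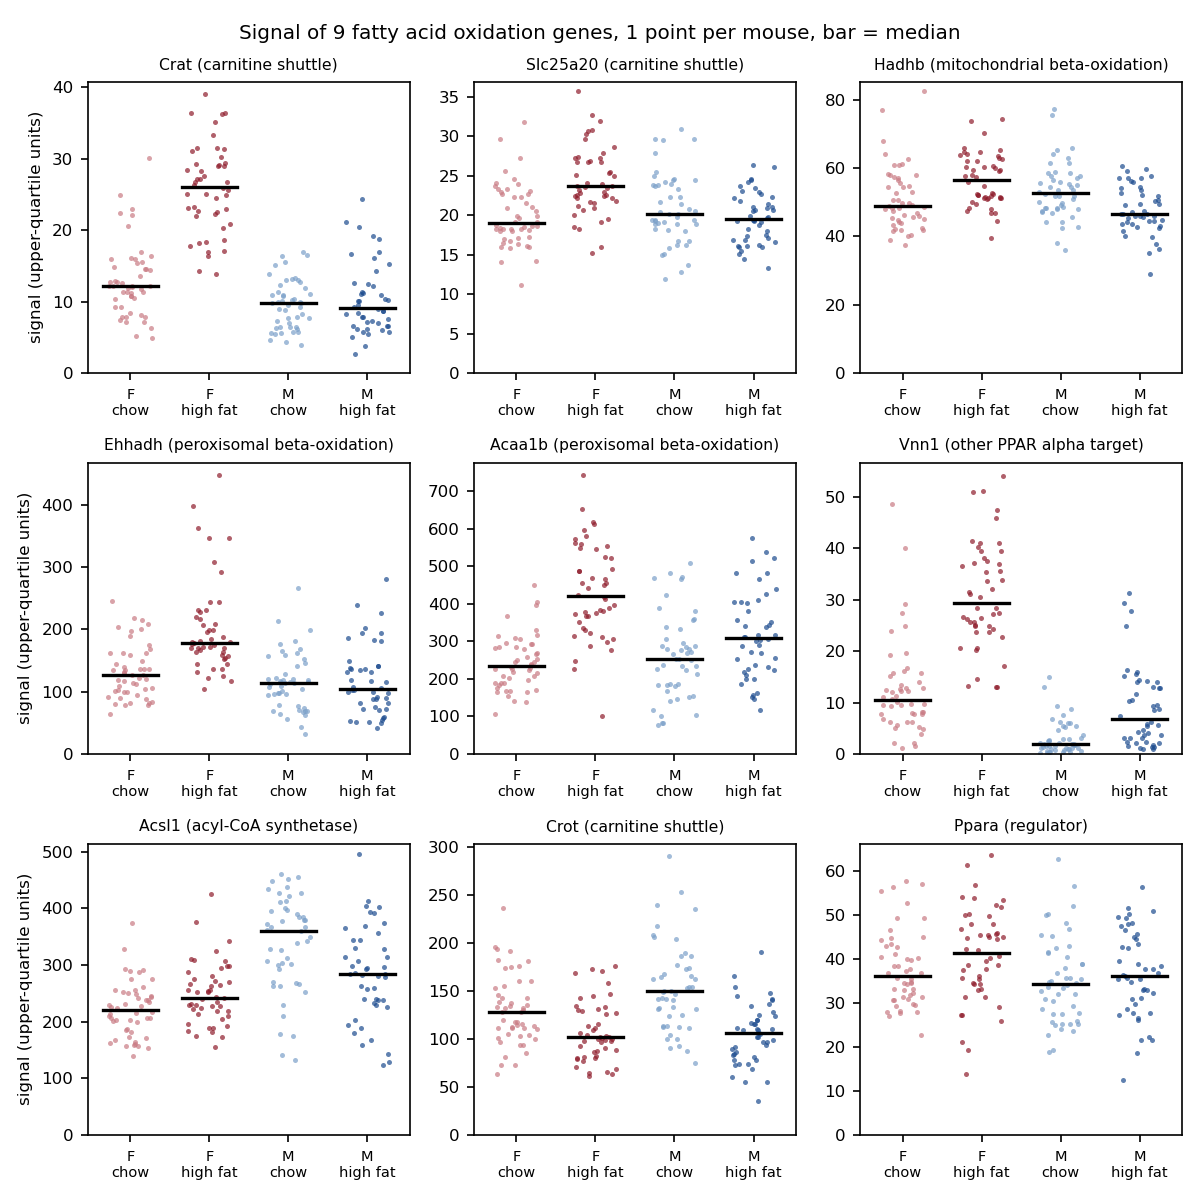
Signal (y axis, upper-quartile units, from 0) of 9 of the genes, 1 point per mouse with a bar at the group median, for females (F) and males (M) on chow and high fat. High fat females stand highest for Crat, Slc25a20, Ehhadh, Acaa1b and Vnn1, chow males for Acsl1 and Crot, and the 4 groups of Ppara overlap, with medians from 34.4 to 41.3.

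In the mitochondrial spiral 3 of 9 genes rose in females by the deposited scaling (Acadl, Hadhb and Hadh), against 10.0% of all tested genes. In males 4 of 9 were called lower (Acadvl, Hadha, Hadhb and Acaa2), near the 39.8% of all tested genes. Median-of-ratios rescaling gave 7 higher calls in females, and 1 higher and 2 lower in males. Quantile normalization gave 9 higher in females, and 3 higher and 0 lower in males. The acyl-CoA dehydrogenases catalyse the first step for chains of different length. Acadl, the long-chain form (chromosome 1, 66830839 to 66863277), had a median of 48.6 in chow females (32.5 to 72.6) and 58.1 in high fat females (39.6 to 74.7). Male medians were 42.0 on chow (26.5 to 64.9) and 40.4 on high fat (25.6 to 67.5). It rose by 0.18 ± 0.05 in females (adjusted p = 0.000834) and showed -0.04 ± 0.05 in males (adjusted p = 0.451). The ranges of the 2 sexes on high fat overlapped, but 45 of 46 males lay below the female median and 22 below the lowest female.

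Acadvl, the very long-chain form on chromosome 11 (70010183 to 70015411), had a median of 99.1 in females on chow and 103 on high fat. In males the medians were 113 on chow (91.7 to 140) and 101 on high fat (65.9 to 133). With the deposited scaling only the male difference was called, and 15 of 46 high fat males lay below the lowest chow male. The male difference was -0.20 ± 0.04 with the deposited scaling (adjusted p = 4.90e-06) and -0.09 after median-of-ratios rescaling (adjusted p = 0.0110), but was not called after quantile normalization (-0.04, adjusted p = 0.198). The medium-chain and short-chain forms Acadm and Acads, and Acad11, a further acyl-CoA dehydrogenase, had no called diet difference in either sex by the deposited scaling. Their changes ran from 0.08 to 0.12 in females and from -0.12 to 0.02 in males. Both rescalings called Acadvl (0.11 and 0.20, adjusted p = 0.00119 and 8.44e-13), Acadm (0.16 and 0.25, adjusted p = 0.00696 and 4.70e-06) and Acads (0.15 and 0.19, adjusted p = 0.00120 and 6.71e-06) higher in females.

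Hadha and Hadhb encode the alpha and beta chains of the mitochondrial trifunctional protein, which carries out the later steps for long chains. The 2 genes lie head to head on chromosome 5, Hadha on the minus strand (30118304 to 30155162) and Hadhb on the plus strand (30155248 to 30184593). The 85 bases between the 2 gene models are shown because the pair varied together more closely than any other pair of the set, as given below. The sequence is from RefSeq's promoter table (build GRCm38.p6, chr5:30155163-30155247, plus strand), in capitals because the whole stretch lies outside both gene models.
Hadha and Hadhb: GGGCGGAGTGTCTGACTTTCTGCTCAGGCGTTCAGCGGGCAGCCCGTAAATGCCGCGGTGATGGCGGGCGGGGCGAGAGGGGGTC

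Hadhb had a median of 49.0 in chow females (37.4 to 82.7) and 56.6 in high fat females (39.5 to 74.5). In males the median was 52.7 on chow (36.2 to 77.2) and 46.6 on high fat (29.1 to 60.6). The medians thus moved in opposite directions, with 41 of 48 high fat females above and 33 of 46 high fat males below the chow median of their sex. The female rise of 0.15 ± 0.04 (adjusted p = 0.00483) held under the 3 scalings, but was not called in G11L2 mice alone (0.098, adjusted p = 0.338). The male change of -0.15 ± 0.05 (adjusted p = 0.00334) was -0.04 after median-of-ratios rescaling (adjusted p = 0.457). Hadha showed 0.08 ± 0.04 in females (adjusted p = 0.127; 0.12 and 0.22 after the 2 rescalings, adjusted p = 0.00204 and 4.50e-09) and -0.16 ± 0.04 in males (adjusted p = 0.000505). Its male change was -0.05 after median-of-ratios rescaling (adjusted p = 0.252). Hadh, the dehydrogenase for shorter chains on chromosome 3 (131233419 to 131272101), rose in females (0.12 ± 0.05, adjusted p = 0.0411) and was not called in males (0.08 ± 0.05, adjusted p = 0.173). The male rise was called after both rescalings (0.19 and 0.25, adjusted p = 0.000405 and 7.21e-07), and the female rise was not called with no filter on low values (adjusted p = 0.0559). Acaa2, the mitochondrial thiolase, had its highest median in chow males, at 227 (153 to 283) against 186 in high fat males (131 to 247). Its male difference was -0.23 ± 0.04 (adjusted p = 2.95e-06), -0.12 after median-of-ratios rescaling (adjusted p = 0.00407) and -0.03 on the quantile scale (adjusted p = 0.412).

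All 5 auxiliary enzymes, which bring the double bonds of unsaturated fatty acids into a form that beta-oxidation can use, rose in high fat females. Of all tested genes, 10.0% were called higher there. Decr1, the mitochondrial dienoyl-CoA reductase (chromosome 4, 15917240 to 15945507), went from a median of 44.6 (29.6 to 62.9) to 54.0 (38.3 to 73.7) in females. In males its median was 42.3 on chow (30.8 to 79.3) and 44.9 on high fat (24.5 to 72.2). In females 45 of 48 high fat values exceeded the chow median, 12 of them the highest chow value, and the rise was 0.32 ± 0.05 (adjusted p = 4.23e-07). The other 4 rose by 0.21 to 0.28 (Ech1, Decr2, Eci1 and Eci2). None of these 4 was called in G11L2 mice alone, where the values were 0.14, 0.21, 0.17 and 0.13 (adjusted p = 0.339, 0.128, 0.209 and 0.40). In males Eci1, an enoyl-CoA isomerase on chromosome 17 (24426641 to 24439348), was lower by the deposited scaling (-0.17 ± 0.06, adjusted p = 0.0186). That was not called after median-of-ratios rescaling (-0.06, adjusted p = 0.443). The other 4 had changes from -0.11 to 0.06 in males and were not called. Both rescalings called Decr1 higher in males (0.16 and 0.22, adjusted p = 0.00588 and 0.000205), and the quantile scale also Decr2 (0.16, adjusted p = 0.0400).

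With the deposited scaling the electron transfer genes did not share the female rise. Etfa, Etfb and Etfdh, which encode the 2 chains of the electron transfer flavoprotein and its dehydrogenase, differed by -0.04 to -0.03 in females, with adjusted p from 0.416 to 0.684. None was called in females after median-of-ratios rescaling. On the quantile scale Etfa was called higher in females (0.093, adjusted p = 0.0093). Etfb and Etfdh were not called there (0.078 and 0.096, adjusted p = 0.059 and 0.073). In males all 3 were lower by the deposited scaling, against 39.8% of all tested genes. Etfa, on chromosome 9 (55454508 to 55512243), had a median of 80.7 in chow males (53.5 to 101) and 69.0 in high fat males (46.6 to 90.0), and 44 of 46 high fat males lay below the chow median. Its difference was -0.22 ± 0.04 (adjusted p = 2.97e-06), -0.11 after median-of-ratios rescaling (adjusted p = 0.00720) and -0.05 after quantile normalization (adjusted p = 0.222). Etfb (-0.15 ± 0.05) and Etfdh (-0.15 ± 0.05) were called with the deposited scaling and not with either rescaling.

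Peroxisomal beta-oxidation held the largest female rises after Crat and Vnn1. Acaa1b, a peroxisomal thiolase on chromosome 9 (119148023 to 119157093), had the highest level per length of the set, at 180.3 signal units per kilobase of transcript as the mean of the 4 group medians. Its signal had a median of 235 in chow females (107 to 450) and 421.3 in high fat females (101 to 743). Male medians were 252 on chow (78.1 to 509) and 310.0 on high fat (117 to 575). Of 48 high fat females, 46 exceeded the chow median and 22 the highest chow value. It rose by 0.82 ± 0.11 in females (1.77-fold, adjusted p = 4.22e-10) and by 0.34 ± 0.11 in males (1.27-fold, adjusted p = 0.00770). In G11L1 mice alone the male change was 0.20 (adjusted p = 0.226).

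Its near copy Acaa1a, also on chromosome 9 (119339676 to 119350299), was not called in either sex (0.12 ± 0.07 and -0.05 ± 0.07, adjusted p = 0.185 and 0.589). Of the 50-base words in the transcripts of Acaa1b, 39.6% also occurred in another gene, mainly Acaa1a, so reads of the pair may have been divided between them and the single values are uncertain. The same share was 44.8% for Etfb (with an overlapping predicted gene), 26.9% for Acadvl (with its neighbour Dvl2) and 19.7% for Hadhb, and 11 of the 33 genes shared none.

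Ehhadh, the peroxisomal bifunctional enzyme (chromosome 16, 21761287 to 21787807), had a median of 127 in chow females (64.8 to 246) and 179 in high fat females (104 to 447). In males it stood at 114 on chow (31.4 to 266) and 105 on high fat (42.2 to 281). The female rise was 0.60 ± 0.11 (1.52-fold, adjusted p = 4.23e-06), with 44 of 48 above the chow median. The male difference was 9.49e-05 ± 0.11 (adjusted p = 1.00), with a 95% interval from -0.22 to 0.22. Hsd17b4, the second peroxisomal bifunctional enzyme, differed by 0.09 ± 0.04 in females (adjusted p = 0.108), called higher after both rescalings (0.14 and 0.23, adjusted p = 0.00267 and 4.31e-08). In males it differed by -0.12 ± 0.05 (adjusted p = 0.0173), not called after either rescaling.

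Bdh1, which interconverts acetoacetate and 3-hydroxybutyrate in mitochondria (chromosome 16, 31422280 to 31458901), changed little. Its median was 78.5 in chow females (39.6 to 136) and 87.6 in high fat females (58.3 to 118). In males it was 64.1 on chow (33.6 to 104) and 70.3 on high fat (47.6 to 97.0). Every high fat value lay within the range of the chow values of the same sex. The female rise was 0.16 ± 0.05 (1.12-fold, adjusted p = 0.0121), and 0.09 in G11L2 mice alone (adjusted p = 0.463). The male difference was 0.09 ± 0.05 (adjusted p = 0.158), and 0.20 after median-of-ratios rescaling (adjusted p = 0.000870).

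The 3 remaining PPAR alpha targets act outside the spiral. Vnn1, a pantetheinase that releases a precursor of coenzyme A (chromosome 10, 23894688 to 23905343), rose in both sexes by nearly the same factor from very different levels. Its signal had a median of 10.4 in chow females (1.25 to 48.6) and 29.4 in high fat females (13.0 to 54.0). In males the median was 1.89 on chow (0.255 to 15.0) and 6.82 on high fat (0.921 to 31.3). All 48 high fat females and 39 of 46 high fat males were above the chow median of their sex. The rise was 1.57 ± 0.23 in females (2.96-fold, adjusted p = 8.89e-09) and 1.55 ± 0.23 in males (2.93-fold, adjusted p = 1.04e-08). The difference of the effects was -0.02, with a 95% interval from -0.66 to 0.63.

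Aldh3a2, which oxidises fatty aldehydes (chromosome 11, 61223417 to 61267464), had medians of 119 and 167 in females and 79.7 and 93.8 in males on chow and high fat. It rose by 0.50 ± 0.11 in females (adjusted p = 0.000253) and by 0.27 ± 0.12 in males (adjusted p = 0.0442). Without the 11 mice with pancreas transcripts the male change was 0.24 (adjusted p = 0.0921). It was also not called with no filter (adjusted p = 0.0596), nor in G11L1 or G11L2 mice alone (0.19 and 0.35, adjusted p = 0.353 and 0.116). Pdk4, the kinase that shuts the entry of pyruvate into the citric acid cycle, was the lowest of the set per length, at 0.433 signal units per kilobase. Its median was 1.71 in chow females (0.80 to 6.54) and 2.49 in high fat females (0.786 to 9.73), against 0.899 (0.367 to 4.71) and 0.931 (0.370 to 3.84) in males. It rose in females (0.49 ± 0.16, adjusted p = 0.0106) and was not called in males (0.13 ± 0.16, adjusted p = 0.509).

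The difference between the diet effects of the 2 sexes was tested directly as an interaction. It was negative, meaning a smaller or more negative effect in males, for all 33 genes, with a median of -0.24 beside -0.05 for all genes, of which 9334 of 14602 were negative. Under the median-of-ratios and quantile scalings 29 and 32 of the 33 were negative. It was called for 19 genes, all on the negative side, against 6.92% of all genes called negative and 1.46% called positive. By step these were 2 of 2 synthetases, 3 of 5 shuttle genes, 6 of 9 mitochondrial genes, 4 of 5 auxiliary enzymes, 1 of 3 electron transfer genes and 3 of 4 peroxisomal genes. Neither Ppara, Bdh1 nor any of the 3 other PPAR alpha targets was called. After Crat the largest were Ehhadh (-0.60 ± 0.16, adjusted p = 0.00794), Acaa1b (-0.48 ± 0.16, adjusted p = 0.0380), Acsl1 (-0.44 ± 0.11, adjusted p = 0.00417) and Eci1 (-0.41 ± 0.09, adjusted p = 0.00122).

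How many of these calls stood depended on the scaling and on the mice used. Median-of-ratios rescaling left 10 genes called and quantile normalization 15, again all negative. The 10 called under all 3 scalings were Acsl1, Acsl5, Slc25a20, Crat, Acadvl, Hadha, Hadhb, Eci1, Ech1 and Ehhadh. In G11L1 mice alone 15 genes were called and 32 of 33 differences were negative. In G11L2 mice alone only Crat was called (-0.91, adjusted p = 0.0267), while all 33 differences were negative, with a median of -0.15. Whether the 2 generation labels differ was not tested.

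**Figure D3:**
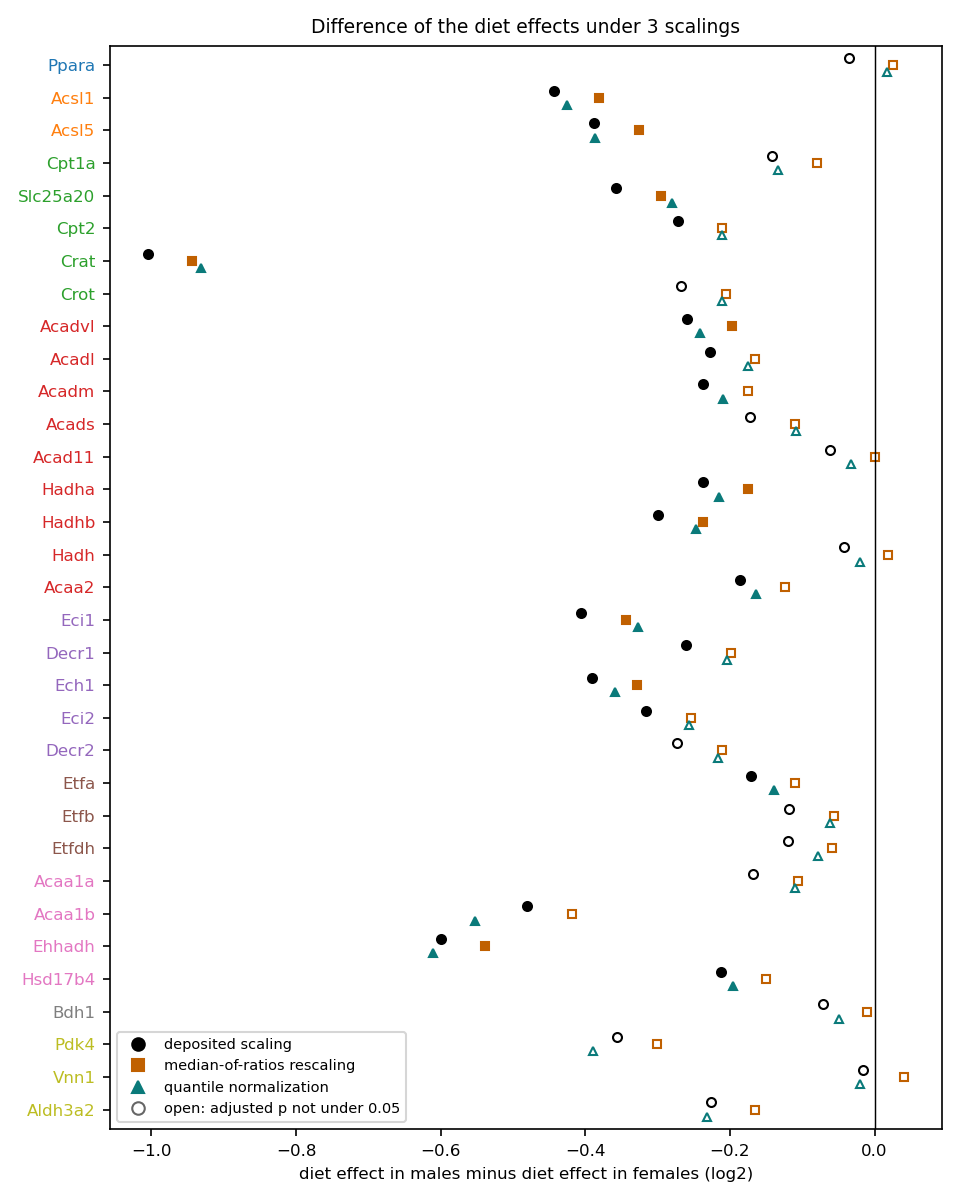
Diet effect in males minus diet effect in females (x axis, log2) for the 33 genes under the deposited scaling (black circles), median-of-ratios rescaling (orange squares) and quantile normalization (green triangles), where open symbols have an adjusted p not under 0.05. Crat stands apart near -1, and 10 genes are filled under all 3 scalings.

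Beside this result, hepatocyte marker genes (Alb, Apoa1, Apob and Ttr) also differed. All 4 were called lower on high fat in males, and 3 and 0 under the median-of-ratios and quantile scalings. In females 1 of 4 was called lower, and 1 lower or 2 higher under those scalings. The interaction was called negative for 2 of 4. Their summed signal ran from 14469 to 37207 in chow females (median 23884), from 14641 to 60609 in high fat females (median 21524), from 12750 to 32162 in chow males (median 20514) and from 9083 to 34233 in high fat males (median 16586). The 4 markers of lipid-associated macrophages (Trem2, Gpnmb, Cd9 and Spp1) moved as well, with 4 of 4 called higher on high fat in females and 3 of 4 in males. Their sums had medians of 7.79 in females on chow (4.80 to 11.4), 12.1 in females on high fat (4.69 to 52.1), 9.28 in males on chow (5.11 to 52.3) and 17.1 in males on high fat (7.30 to 119). Of 7 Kupffer cell markers, 2 were called lower in females and 3 higher in males, with summed medians of 93.4, 98.3, 58.6 and 70.3 in chow females, high fat females, chow males and high fat males. No mouse had a summed signal of 0 for any of these 3 lists, although Trem2 and Gpnmb were near 0 in chow females, with medians of 0.0472 and 0.0639. None of 8 pancreas, 3 skeletal muscle and 4 lymphocyte markers tested was called for diet in either sex. Of 4 stellate cell markers, 1 was called higher in females and 2 in males, and of 4 endothelial markers, 1 was called higher in each sex and 1 lower in males. The 1 adipose marker tested, Fabp4, was called higher in both sexes (0.47 in females and 0.78 in males), and of 3 red cell markers 1 was called higher and 1 lower in males. The part of these cell types in the result was not tested.

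On the high fat diet the 2 sexes differed in most of the set, always with the lower level in males. In high fat mice 21 genes were called lower in males and 0 higher, against 18.3% of all genes called lower and 31.5% called higher. The median difference was -0.26, beside 0.04 for all genes. All 21 held under the 3 scalings, and 29 genes were called lower after each rescaling. The largest were Vnn1 (-2.26 ± 0.23, 4.80-fold, adjusted p = 1.38e-16), Crat (-1.41 ± 0.11, 2.67-fold, adjusted p = 3.44e-25), Pdk4 (-1.21 ± 0.16, 2.31-fold, adjusted p = 5.87e-11), Aldh3a2 (-0.95 ± 0.12, adjusted p = 1.33e-12) and Ehhadh (-0.84 ± 0.11, adjusted p = 5.36e-11). All 46 high fat males lay below the median of high fat females for Crat, 36 of them below the lowest female. For Vnn1 45 of 46 lay below the female median, and for Pdk4 42 of 46. In the same mice 6 of 7 Kupffer cell, 4 of 4 lymphocyte and 3 of 4 endothelial markers were called lower in males. With the deposited scaling, 2 of 4 lipid-associated macrophage markers were called higher and 1 lower, and 1 of 4 stellate cell markers higher. The adipose marker and 1 of 3 red cell markers were also called higher. None of 8 pancreas and 3 skeletal muscle markers was called. Of 4 hepatocyte markers, 1 was called higher and 1 lower with the deposited scaling, and all 4 lower on the quantile scale (median -0.38). The part of all these cell types in the difference was not tested.

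On chow the set was split. Among chow mice 10 genes were called lower in males and 8 higher, against 19.1% and 44.1% of all genes, and the median difference was -0.005 beside 0.10 for all genes. All 10 genes lower in chow males (Cpt1a, Crat, Acadl, Hadh, Decr2, Ehhadh, Bdh1, Pdk4, Vnn1 and Aldh3a2) were also lower in high fat males, and all 10 held under the 3 scalings. Of the 8 higher in chow males, Acsl1 (0.59 ± 0.08, 1.502-fold, adjusted p = 7.42e-12), Acadvl, Acaa2 and Hsd17b4 held under the 3 scalings. The other 4, Cpt2, Crot, Acads and Eci2, did not, and after either rescaling the split was 4 higher and 18 lower. The generations gave different splits: in G11L1 mice alone 10 genes were called higher and 5 lower (median 0.08), and in G11L2 mice alone 3 higher and 8 lower (median -0.10). Crat (-0.22, adjusted p = 0.227), Decr2 (-0.10, adjusted p = 0.390), Bdh1, Cpt1a and Ehhadh were not called lower in G11L1 mice alone. None of the 8 genes higher in chow males was called higher on the high fat diet. Without the 11 mice with pancreas transcripts Cpt1a (-0.13, adjusted p = 0.0783) and Ehhadh (-0.18, adjusted p = 0.152) were no longer called on chow. All 7 Kupffer cell markers, 3 of 4 endothelial markers and 4 of 4 lymphocyte markers were also called lower in males on chow. So were 3 of 4 stellate cell markers. Of 4 lipid-associated macrophage markers, 2 were called higher with the deposited scaling and 0 after either rescaling. Of 3 red cell markers, 1 was called higher and 1 lower. The pancreas, skeletal muscle and adipose markers were not called. Of 4 hepatocyte markers, 3 were called higher and 1 lower with the deposited scaling, and 0 higher and 3 lower after quantile normalization. The part of these cell types in the difference was not tested.

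**Figure D4:**
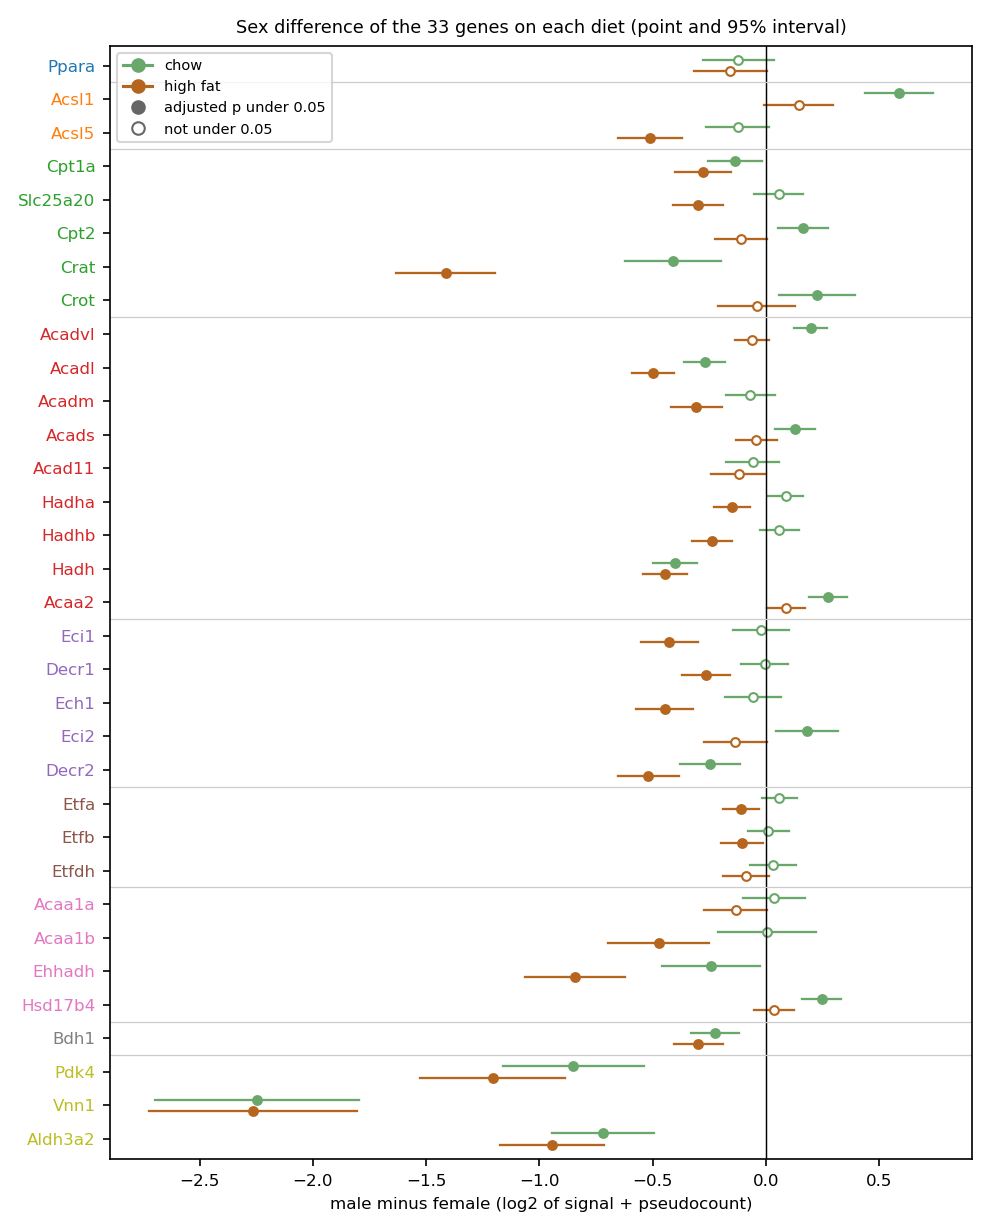
Log2 difference between males and females for each of the 33 genes (x axis) with its 95% interval, on chow (green) and high fat (brown). Filled points have an adjusted p under 0.05. Filled brown points all lie left of 0, while filled green points lie on both sides, from -2.25 for Vnn1 to 0.59 for Acsl1.

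No difference by diet, as the mean of the female and male effects, was called in the spread between mice of the same group. None of the 33 genes was called for absolute deviation from the group median (limma). Of all genes, 1.86% were called more variable and 0.363% less variable on high fat. At an unadjusted p under 0.05 there were 5 members, and the smallest adjusted p was 0.0749, for Etfb. Spread was not tested within each sex, and opposite changes would cancel in this mean. From chow to high fat the coefficient of variation of Crat went from 39.9% to 23.6% in females and from 35.7% to 47.6% in males. The coefficient of variation within a group ran from 10.6% (Acadvl in chow females) to 103% (Vnn1 in chow males). Steady genes were found in the spiral and in electron transfer, and the widest spread was in Vnn1 and Pdk4, where it reached 80.1% in chow males.

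The genes of the set varied together from mouse to mouse within groups. After removal of group and generation means, the median Pearson correlation over the 528 pairs was 0.50 (quartiles 0.33 and 0.60) across 192 mice, beside 0.02 for all pairs of tested genes. For females it was 0.47 on chow and 0.48 on high fat, and for males 0.59 and 0.46. The values share the scaling of each mouse, so the median was also taken on other scales, where it came to 0.40 (median-of-ratios) and 0.36 (quantile). Within mitochondrial beta-oxidation the median was 0.65 over 36 pairs, and in the carnitine shuttle 0.37 over 10 pairs.

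Hadha and Hadhb, the 2 chains of 1 protein, had the highest correlation of the set (r = 0.87, rho = 0.86, permutation p = 1e-05 for each, the smallest that 100000 permutations can give, adjusted 1.56e-05 and 1.39e-05 over 39 relations). It was 0.90, 0.86, 0.90 and 0.81 in chow females, high fat females, chow males and high fat males, and 0.86 without the 2 mice farthest from the Hadha median. Acadm with Hadh (r = 0.82) and Acadvl with Acaa2 (r = 0.81) followed. Etfa correlated with Etfb at 0.62 and with Etfdh at 0.63. Slc25a20 had the highest median correlation with the other members, 0.64. Pdk4 had the lowest, 0.09, and Acsl5 the next lowest, 0.21.

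Over the 192 mice together, after removal of group and generation means, the level of Ppara correlated with that of most other members. Of its 32 correlations with the other members, 28 were positive with an adjusted permutation p under 0.05. The other 4 (Acsl5, Crot, Etfb and Pdk4) did not pass. The share of all tested genes that would pass with Ppara is not given here, and all values share the scaling of each mouse. Under median-of-ratios scaling 3 of the 28 no longer passed (Acads, Eci1 and Etfa, r from 0.057 to 0.14). On the quantile scale 5 did not (Acadvl, Acads, Acaa2, Eci1 and Etfa, r from 0.0077 to 0.13), and Etfb stood at -0.24. The closest were Acad11 (r = 0.63, rho = 0.63, adjusted p = 1.56e-05 and 1.39e-05) and Cpt1a (r = 0.61, rho = 0.63, adjusted p = 1.56e-05 and 1.39e-05). Within the 4 groups, in the order above, r was 0.50, 0.58, 0.63 and 0.80 for Acad11, and 0.57, 0.45, 0.75 and 0.70 for Cpt1a. Without the 2 mice farthest from the Ppara median r was 0.62 for both genes. In G11L1 and G11L2 mice r was 0.61 and 0.66 for Acad11 and 0.61 and 0.61 for Cpt1a. Other members were less even between groups. For the 28 that passed, r in high fat females ran from -0.12 (Crat) to 0.58 (Acad11). There it was also below 0 for Acads (-0.05) and Acaa1b (-0.09).

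**Figure D5:**
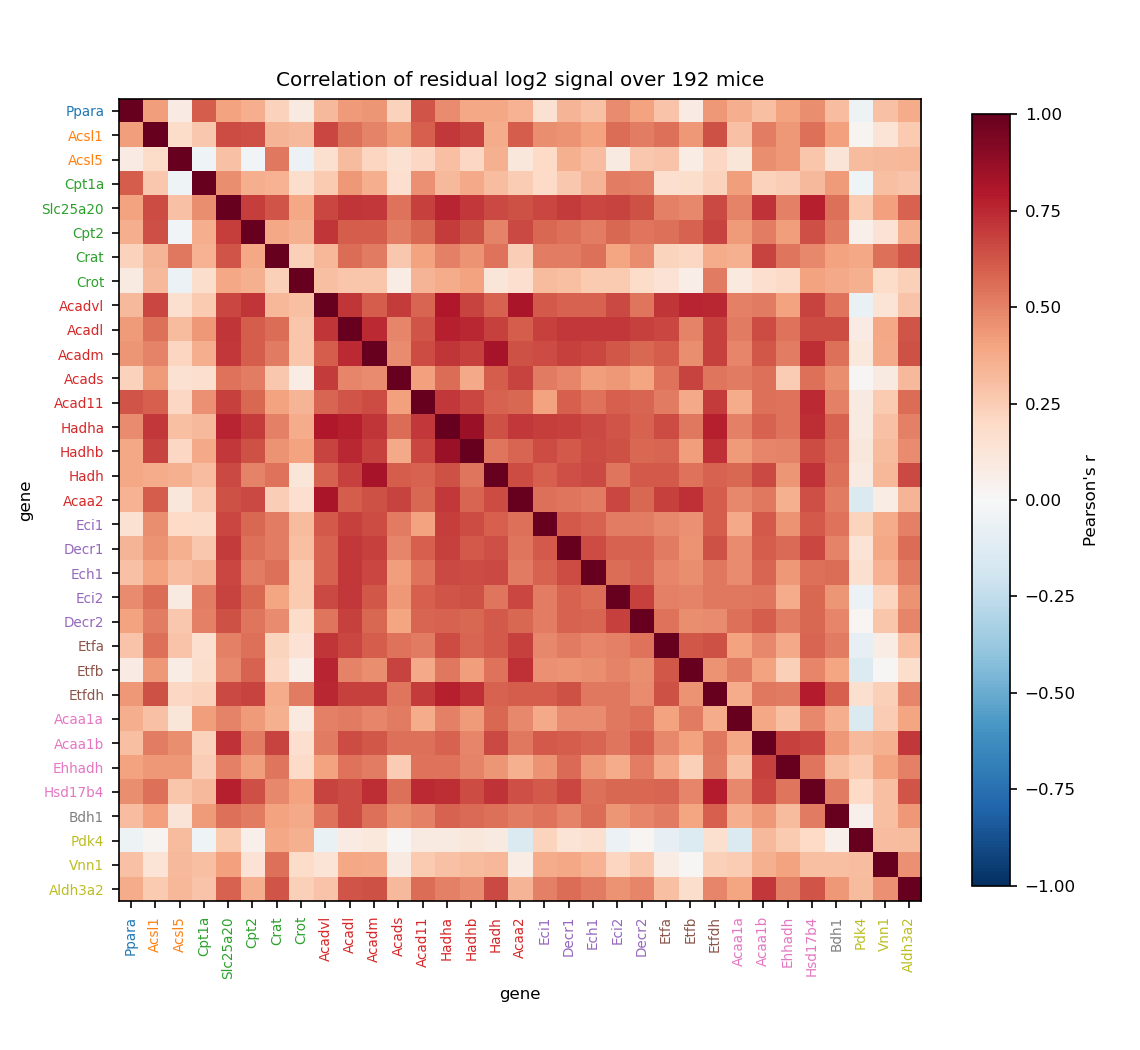
Pearson's r (colour, -1 in blue to 1 in red) between the residual log2 signals of the 33 genes over 192 mice, after removal of group and generation means, with genes ordered and coloured by step. Most of the field is red (517 of 528 pairs positive), and the rows of Pdk4 and Acsl5 are pale.

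PPAR alpha binds DNA with a partner receptor at repeats of the hexamer AGGTCA, so the stretch of 250 bases before each start site was searched for it. RefSeq's promoter table held 28 of the 33 genes. AGGTCA or its reverse complement TGACCT occurred in 3 of 30 windows of members (10.0%) and in 14.0% of all 32851 windows. The repeat of 2 such hexamers 1 base apart, AGGTCANAGGTCA on either strand, occurred in 0 windows of members and in 0.0335% of all windows. The 3 members with the hexamer are Acadm, Acadvl and Cpt1a. Their windows are shown because they hold the hexamer, which was no more frequent in members than in all windows. Capitals mark the hexamer, each sequence runs 5′ to 3′ on the gene's own strand (build GRCm38.p6, RefSeq), and bases covered by a GENCODE exon are left off. Coordinates are chr3:153944644-153944893 (minus) for Acadm, chr11:70015429-70015678 (minus) for Acadvl and chr19:3323051-3323284 (plus) for Cpt1a.
Acadm: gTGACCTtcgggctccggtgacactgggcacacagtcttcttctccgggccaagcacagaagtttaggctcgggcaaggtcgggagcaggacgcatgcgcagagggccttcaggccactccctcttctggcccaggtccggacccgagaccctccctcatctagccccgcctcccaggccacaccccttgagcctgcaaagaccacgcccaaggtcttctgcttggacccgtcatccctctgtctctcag
Acadvl: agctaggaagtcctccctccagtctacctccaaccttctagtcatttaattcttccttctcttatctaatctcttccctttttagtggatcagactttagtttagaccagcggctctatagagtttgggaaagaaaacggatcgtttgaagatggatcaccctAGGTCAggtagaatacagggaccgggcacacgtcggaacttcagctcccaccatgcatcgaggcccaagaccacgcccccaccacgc
Cpt1a: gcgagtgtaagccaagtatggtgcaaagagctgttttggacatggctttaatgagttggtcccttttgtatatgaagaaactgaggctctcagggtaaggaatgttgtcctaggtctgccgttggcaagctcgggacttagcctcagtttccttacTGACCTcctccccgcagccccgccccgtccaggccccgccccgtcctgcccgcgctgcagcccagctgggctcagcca

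The hexamer ends 81 bases before the RefSeq start site in Acadvl, 88 bases before it in Cpt1a and 243 bases before it in Acadm. For Cpt1a the GENCODE gene model begins further upstream, at 3322334, so the window lies within that model. A match of letters in this window is a description, and no binding was measured.

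A list of 45 other genes of the pathway and of PPAR alpha served for comparison. In females 20 rose and 9 fell on high fat, against 10.0% of all tested genes called higher and 23.3% called lower. In males 8 were called higher and 12 lower, against 11.4% and 39.8% of all genes. Under median-of-ratios scaling the counts of the list were 20 and 5 in females and 12 and 5 in males. Of the 14602 genes, 2194 and 2142 were then called in females and 2828 and 2453 in males. The interaction was called negative for 9 and positive for 1, against 6.92% and 1.46% of all genes. After that rescaling it was called for 6 and 3, beside 306 and 311 of the 14602 genes. Among the largest changes, the lipid droplet gene Cidec rose 4.29-fold in females and 2.39-fold in males (adjusted p = 8.15e-11 and 5.44e-05). The fatty acid hydroxylase gene Cyp4a14 rose 3.00-fold in females and 2.15-fold in males (adjusted p = 0.000391 and 0.0114), and the hormone gene Fgf21 rose 2.31-fold in females (adjusted p = 7.05e-07). Cyp4a31 rose 2.09-fold in males (adjusted p = 0.000383). In males the Cidec change was 0.52 on the log2 scale in G11L2 mice alone (adjusted p = 0.343), and that of Cyp4a14 0.52 in G11L1 mice alone (adjusted p = 0.511), against 1.26 and 1.104 in all. On the lower side stood Bdh2 (-0.43 in females and -0.51 in males), Acadsb, a branched-chain dehydrogenase (-0.37 and -0.50), Pecr (-0.42 in females) and Hacl1, of peroxisomal alpha-oxidation (-0.58 in males), with adjusted p of 0.00105 or less.

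The interaction in this list was largest for the thioesterase gene Acot1 (-1.58, adjusted p = 6.18e-06), Fgf21 (-0.94, adjusted p = 0.0280) and the peroxisome division gene Pex11a (-0.86, adjusted p = 6.18e-06), with Pecr the one positive call (0.29, adjusted p = 0.0403). Fgf21 had adjusted p = 0.0558 after median-of-ratios rescaling, and Pecr adjusted p = 0.0513 without the 11 mice with pancreas transcripts. Between the sexes 15 were higher and 18 lower in chow males, against 44.1% and 19.1% of all genes. In high fat males 11 were higher and 21 lower, against 31.5% and 18.3%. The peroxisomal thioesterase gene Acot3 was 32.8-fold lower in males on chow and 32.9-fold lower on high fat, and the transporter gene Abcd2 14.8-fold and 11.5-fold lower. Cyp4a14 was 7.18-fold and 10.04-fold lower. The sterol carrier gene Scp2 was 2.58-fold and 1.90-fold higher in males, and Phyh, which starts alpha-oxidation, 1.604-fold and 1.51-fold higher, followed by Acox2 on chow (1.52-fold) and Acox3 on high fat (1.41-fold). All of these sex differences had an adjusted p of 1.67e-11 or less.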

How the data were processed

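The data are single-end RNA-seq (100 bp) of 192 mouse livers. Per the file headers, the values that the authors deposited for 21454 genes are a signal with upper-quartile scaling per mouse. The submitters' processing notes name CASAVA 1.8.0, GRCm38 and mm10. Aligner, counter and annotation: not given in the sources used here. Low values (at most 100 estimated reads) lay within 0.1 of a whole read in 77.0% to 82.4% of cases per mouse, so reads were not recovered, no count test was run, and precision rests on the number of mice.

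Genes above 0 in at least 46 mice with a mean of at least the pseudocount (0.0629, 1/100 of the median upper quartile of 6.29) were kept. limma 3.58.1 (R 4.3.3) fitted log2(value + pseudocount) with 4 group means, the generation label and a mean-variance trend, with Benjamini-Hochberg adjustment over 14602 genes. Folds are on that scale and understate changes of low genes. Intervals are 95%. Correlations used residuals and 100000 permutations within group and generation. On simulated data 48% of log2 changes of 0.2 and 92% of 0.5 in females were recovered among 14602 genes (50 genes each). The other genes there had almost no diet effect and the noise was independent between genes. These shares therefore do not give the power in the real data. All 33 members are named, with the 3 largest called changes in each direction of the 45 other pathway genes. Members, lists and cell type markers were chosen with earlier results of these data known. Gene positions are from GENCODE M21, counted from 1. Mouse numbers shared between sexes did not pair the mice (9 of 92 correlations over 0.1).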

Additional observations from a re-analysis of the deposited data

Results flagged for a closer look

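With the deposited scaling the limma interaction test called a different diet effect in males and females for 19 of the 33 genes, all negative. Of all 14602 genes, 6.92% were called negative and 1.46% positive. Under all 3 scalings 10 of the 19 held, and in G11L2 mice alone only Crat was called. Each value below is the male effect minus the female effect on the log2 scale, with the deposited scaling. In the shuttle and synthetase genes the values were -1.01 (Crat), -0.44 (Acsl1), -0.39 (Acsl5), -0.36 (Slc25a20) and -0.27 (Cpt2). In mitochondrial beta-oxidation they were -0.30 (Hadhb), -0.26 (Acadvl), -0.24 (Hadha), -0.24 (Acadm), -0.23 (Acadl) and -0.19 (Acaa2). Auxiliary enzymes stood at -0.41 (Eci1), -0.39 (Ech1), -0.32 (Eci2) and -0.26 (Decr1). Peroxisomal genes stood at -0.60 (Ehhadh), -0.48 (Acaa1b) and -0.21 (Hsd17b4), and Etfa of electron transfer at -0.17.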

How the results depend on the processing

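Counts of called genes (main 19, 15, 19, 18, 21 and 0 for diet in females, diet in males, the interaction, sex on chow, sex on high fat and spread) stayed within 1.5 times under most settings. The exceptions were 30 for diet in females and 1 for spread after quantile normalization, 10 for the interaction after median-of-ratios rescaling, and, in G11L2 mice alone, 9, 6, 1 and 11 for the first 4 comparisons; fewer mice enter the last setting. The median correlation of the set was 0.40 and 0.36 after the 2 rescalings. With a replicate block for the mouse number, which did not pair the mice, the counts were 19, 15, 19, 19, 21 and 0.

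Single genes changed sign, with a call on either side, in 1 case after median-of-ratios rescaling (Etfb, sex on chow, -0.11) and in 10 after quantile normalization. These were diet in females for Acaa2 (0.13) and Etfa (0.093), diet in males for Acadl (0.12), Decr2 (0.16), Etfb (0.017), Etfdh (0.018), Hadha (0.0058), Hadhb (0.011) and Hsd17b4 (0.036), and sex on chow for Etfb (-0.10). The correlation of Ppara with Etfb became -0.24. The cause was not tested. Sign changes with no call on either side were not counted.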
